A study of Mus musculus with 8 samples.

Results

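The adrenomedullin and apelin signalling genes described here are the ligand genes Adm and Apln, the receptor genes Calcrl and Aplnr, and the genes Ramp1, Ramp2 and Ramp3, which encode the receptor activity-modifying proteins. They were taken by symbol, 7 of the 18395 genes in the deposited count table, and all 7 had enough counts to be among the 13901 genes tested. The family was chosen from these same data because Ramp3 lay much higher in the knockout libraries. The KO to WT differences of all 7 genes are therefore given as a description, with no p-value.

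Adrenomedullin is a vasodilator peptide that is made by many tissues and acts on vessels. Its receptor is the protein encoded by Calcrl, which reaches the cell surface and takes its ligand preference only in complex with a RAMP: with RAMP1 it prefers calcitonin gene-related peptide (CGRP), and with RAMP2 or RAMP3 it prefers adrenomedullin. Apelin is a separate peptide that acts on its own receptor, APJ, encoded by Aplnr, and both peptide systems are known for their part in the growth and permeability of blood vessels, in which brown fat is rich.

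The data are 8 RNA-seq libraries of mouse adipose tissue, 4 labelled WT, from control mice, and 4 labelled KO, from mice that lacked Kindlin-2, the integrin-binding protein encoded by Fermt2, in brown adipocytes. All mice, controls included, had been kept at 4 °C for 6 hours, so there was no group at warmer temperature. The series concerns brown fat, but the labels call the tissue adipose and name no depot, and the strain, age, sex and the promoter that removed the gene were not stated in the labels. The labels do not say that replicates came from separate animals, and p-values then measure only the spread between these samples, which may be technical.

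The libraries held between 33672272 and 43253559 counts. All 12 brown adipocyte markers were detected, with a summed level of 11400 to 14340 counts scaled to sequencing depth (CPM, with library sizes normalized by TMM, the trimmed mean of M values) in WT and 6938 to 11030 CPM in KO. Fermt2 had a mean of 230 ± 19.4 CPM in the WT and 168 ± 25.3 CPM in the KO libraries (SD, n = 4), with every KO library below every WT library. Its log2 fold change was -0.45 ± 0.14 (SE; adjusted p = 0.134 in edgeR and 0.0336 in DESeq2). A pair of libraries stood apart. WT replicate 3 carried skeletal muscle transcripts, with Acta1, the actin of skeletal muscle, at 11200 CPM against at most 57.3 CPM elsewhere. KO replicate 2 carried interferon response transcripts, with the interferon-induced GTPase Gbp2 at 1505 CPM against at most 54.2 CPM elsewhere. Differences are therefore given with all 8 libraries and with the 6 that remain without these 2.

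Within the family, the KO libraries held more mRNA of Ramp3, Aplnr and Ramp2 than the WT libraries, while Calcrl differed less and the ligand genes differed, with 8 libraries, by no more than their standard errors. In bulk tissue, fewer cells of a type and less RNA per cell cannot be told apart. With 8 libraries 5 of the 7 genes lay higher in KO and 2 lower, with a median log2 fold change of 0.38, against 0.00362 over all genes tested. With 6 libraries all 7 lay higher, with a median of 0.84, against 0.0107. With an adjusted p below 0.05 as the threshold, edgeR called 0 of the 7 with 8 libraries and 0% of all genes tested (0 in limma-voom as well; 2993 genes had an unadjusted p under 0.05). With 6 libraries it called Ramp2 and Ramp3, both higher in KO, where 1.82% of all genes were called higher. DESeq2 gave an adjusted p for 6 of the 7 and called Aplnr, Ramp2 and Ramp3, all higher, where it called 8.71% of all genes in either direction. Since the genes were chosen on this contrast, these counts carry no weight of their own.

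**Figure D1:**
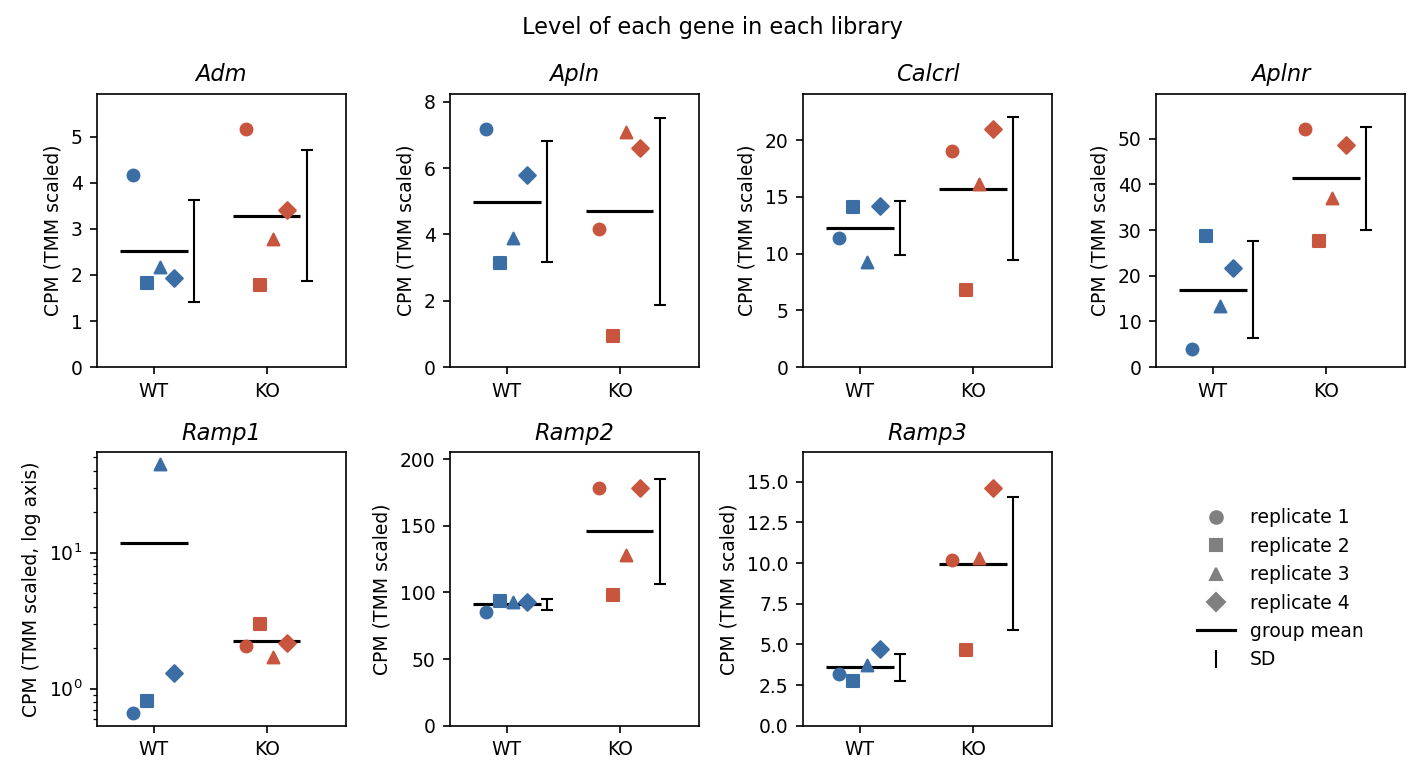
Level of each gene (CPM on TMM-scaled library sizes, y axis; log axis for Ramp1) in the WT and KO libraries (x axis). Marker shapes stand for replicate numbers, which do not pair samples, horizontal lines for group means, and bars for SD (n = 4; none drawn for Ramp1). Ramp2 is the gene whose KO libraries all lie above all WT libraries, and Ramp1 in WT replicate 3 lies at 44.3 CPM.

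Transcripts can be ranked against each other only per length, here as CPM per kilobase of the principal transcript. Ramp2 was by far the most abundant, at 77.2 ± 3.35 CPM per kilobase in WT against 124 ± 33.7 in KO (SD, n = 4), and its lowest library lay above every value of the other 6 genes. In KO the order below it was Aplnr at 11.2 ± 3.03, Ramp3 at 8.07 ± 3.32, Calcrl at 3.22 ± 1.29, Adm at 2.36 ± 1.02, Apln at 1.49 ± 0.893 and Ramp1 at 0.960 ± 0.229 CPM per kilobase. The ranges of each of these neighbours overlapped. In WT the values were 4.60 ± 2.88 for Aplnr, 2.91 ± 0.689 for Ramp3, 2.51 ± 0.487 for Calcrl, 1.82 ± 0.797 for Adm and 1.59 ± 0.581 CPM per kilobase for Apln, again with overlapping neighbours. Ramp1 ranged from 0.284 to 19.1 CPM per kilobase in WT, and its highest value without WT replicate 3 was 0.562, below every WT value of the other genes. The Ramp2 level depends on how reads were shared with the overlapping gene Vps25, as described below.

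The ligands came first. Adm, which encodes the adrenomedullin precursor, was at 4.17, 1.82, 2.18 and 1.93 CPM in WT replicates 1 to 4 and at 5.16, 1.79, 2.78 and 3.40 CPM in KO replicates 1 to 4. Replicate 1 was the highest library of either group, and the groups overlapped. The means were 2.53 ± 1.11 and 3.28 ± 1.42 CPM (SD, n = 4), with a log2 fold change of 0.38 ± 0.39 (SE), or 0.52 ± 0.39 with 6 libraries. These levels rest on 58 to 224 counts per library.

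Apln, which encodes the apelin precursor, was at 7.17, 3.13, 3.88 and 5.78 CPM in WT and at 4.17, 0.938, 7.08 and 6.61 CPM in KO. KO replicate 2 was the lowest of all libraries, with 42 counts, and WT replicate 1 the highest, and the groups overlapped. The means were 4.99 ± 1.83 and 4.70 ± 2.81 CPM (SD, n = 4). Their log2 ratio came to -0.09 ± 0.54 (SE) with 8 libraries and 0.15 ± 0.33 with 6, both smaller than their errors.

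The receptor genes differed from each other. Calcrl, the gene of the receptor that RAMPs accompany, was at 11.3, 14.1, 9.28 and 14.2 CPM in WT and at 19.1, 6.79, 16.1 and 21.0 CPM in KO. The KO libraries lay above all WT libraries except for replicate 2, which was the lowest of all 8. The means were 12.2 ± 2.38 and 15.7 ± 6.29 CPM (SD, n = 4), with a log2 fold change of 0.36 ± 0.32 (SE), or 0.50 ± 0.16 with 6 libraries.

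Aplnr, the apelin receptor gene, was at 4.02, 28.7, 13.5 and 21.8 CPM in WT and at 52.1, 27.6, 37.1 and 48.6 CPM in KO. WT replicate 1 held 134 counts, against 403 to 916 in the other WT libraries and 1233 to 2261 in KO. The groups overlapped only where KO replicate 2 lay just below WT replicate 2. The means were 17.0 ± 10.7 and 41.4 ± 11.2 CPM (SD, n = 4), with a log2 fold change of 1.28 ± 0.53 (SE), or 1.34 ± 0.67 with 6 libraries. WT replicate 1, the lowest library for Aplnr, was the highest for Apln and the highest WT library for Adm. Per length, the ratio of Aplnr to Apln had means of 3.61 ± 3.05 and 11.6 ± 9.30 (SD, n = 4) in the WT and the KO libraries. The lowest ratio belonged to WT replicate 1 and the highest to KO replicate 2, and the groups overlapped. Without KO replicate 2 the KO mean was 7.12 ± 3.17 (SD, n = 3), and the ratio of the group means was 3.21 with 8 libraries and 1.86 with 6.

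Of the receptor activity-modifying genes, Ramp1, the CGRP receptor partner, was at 0.660, 0.815, 44.3 and 1.31 CPM in WT and at 2.07, 2.97, 1.71 and 2.17 CPM in KO. WT replicate 3 held 1324 counts of it against 22 to 52 in the other WT libraries. The direction of the difference rested on this library: the log2 fold change was -2.39 ± 1.47 (SE) with 8 libraries, 1.26 without WT replicate 3 alone and 1.09 ± 0.37 with 6 libraries. In the 6 libraries every KO value lay above every WT value. The 10 skeletal muscle markers, none at 0 in all libraries, summed to 44320 CPM in WT replicate 3, to between 4.42 and 301 CPM in the other WT libraries and to between 8.53 and 253 CPM in KO. Their part in the Ramp1 value was not tested.

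Ramp2, a partner in the adrenomedullin receptor, was at 85.1, 93.3, 92.8 and 92.8 CPM in WT and at 178, 98.1, 128 and 179 CPM in KO. The WT libraries lay close together, and all KO libraries lay above them, with replicate 2 the nearest. The means were 91.0 ± 3.95 and 146 ± 39.7 CPM (SD, n = 4), with a log2 fold change of 0.68 ± 0.19 (SE), or 0.84 ± 0.15 with 6 libraries. Ramp2 shares 1103 exonic bases on the same strand with Vps25 in the GENCODE M21 annotation, so how reads were shared between them is uncertain. Vps25 was given 20 to 39 counts in any library against at least 2772 for Ramp2. These counts cannot show whether reads of Vps25 were dropped or given to Ramp2.

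Ramp3, the other partner in the adrenomedullin receptor and the gene for which the family was chosen, was at 3.18, 2.73, 3.75 and 4.70 CPM in WT and at 10.2, 4.65, 10.3 and 14.6 CPM in KO. It was counted 87 to 187 times per WT library and 208 to 594 times per KO library. KO replicates 1, 3 and 4 stood above all WT libraries, and KO replicate 2 lay just below WT replicate 4. The means were 3.59 ± 0.850 and 9.95 ± 4.10 CPM (SD, n = 4), a log2 fold change of 1.47 ± 0.33 (SE) or 2.77-fold. With 6 libraries the log2 fold change was 1.72 ± 0.26, or 3.31-fold. In GENCODE M21, Ramp3 shares 101 exonic bases with Gm11978 on the opposite strand, and as the strand setting of the counting is not known, reads there cannot be told apart.

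The groups' overlap depended on scaling for 2 of the genes. On TMM-scaled CPM, all KO libraries lay above all WT libraries for 1 of the 7 genes, Ramp2, as they did for 5.80% of all genes tested. Scaled by total counts alone, they did so for 3 of the 7, Aplnr, Ramp2 and Ramp3, and for 19.8% of all genes. With 6 libraries and TMM scaling they did so for 5 of the 7, all but Adm and Apln, and for 15.4% of all genes. The choice of the family fixes part of this, so nothing is read from these counts. Scaling by total counts moved the median log2 fold change of all genes to 0.264 and the log2 fold change of Ramp3 to 1.73.

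**Figure D2:**
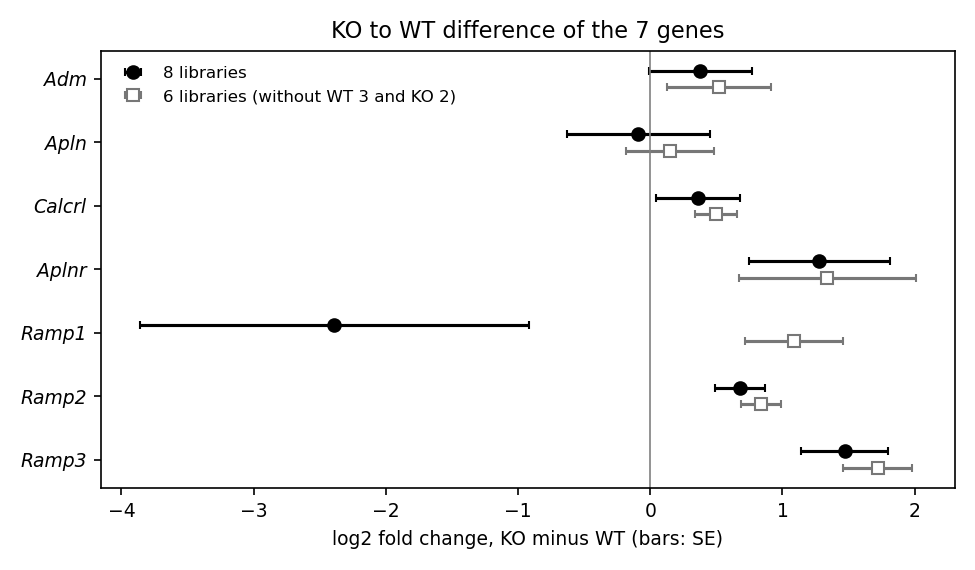
Log2 fold change of each gene, KO minus WT (x axis), with all 8 libraries (filled circles) and with 6 libraries, without WT replicate 3 and KO replicate 2 (open squares); bars are SE from edgeR. Ramp1 moves from -2.39 to 1.09 between the fits, and Ramp3 lies at 1.47 and 1.72.

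The base sequence just upstream of the start is shown for Ramp3, the gene with the largest positive difference, and for Calcrl, whose product it accompanies and which differed less. Both are RefSeq promoter windows on GRCm38.p6, 250 bases before the annotated start, read 5′ to 3′ on the gene's strand. Ramp3 lies on the plus strand at chr11:6658283-6658532 and Calcrl on the minus strand at chr2:84425267-84425516. Capitals mark GGGCGG, the core of the GC box, or its reverse complement CCGCCC.
Ramp3: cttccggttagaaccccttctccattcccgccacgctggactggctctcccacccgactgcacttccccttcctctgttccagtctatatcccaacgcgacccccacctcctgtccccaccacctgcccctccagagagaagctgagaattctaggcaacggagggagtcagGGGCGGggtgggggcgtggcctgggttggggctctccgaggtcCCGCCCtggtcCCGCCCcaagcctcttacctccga
Calcrl: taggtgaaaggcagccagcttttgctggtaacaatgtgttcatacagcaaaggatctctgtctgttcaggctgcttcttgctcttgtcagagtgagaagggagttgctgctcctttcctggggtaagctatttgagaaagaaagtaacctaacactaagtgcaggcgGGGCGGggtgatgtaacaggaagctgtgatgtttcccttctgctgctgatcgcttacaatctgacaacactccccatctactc
The Ramp3 window held 3 such matches, which begin 78, 35 and 24 bases before the start, and the Calcrl window 1, 83 bases before it. Windows were matched for 5 of the 7 genes. Adm and Apln had 1 match each and Ramp1 0, and 32.7% of 32851 RefSeq windows of the same length held at least 1. Adm is a well-known hypoxia-inducible gene, and the core of the hypoxia response element, ACGTG or its reverse complement CACGT, was also searched. It was in 0 of these 5 windows and in 16.6% of all windows. A match describes the letters only, and no match says nothing beyond this window.

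Since RAMP proteins act in complex with the calcitonin receptor-like receptor, the transcripts were also set against each other within each library. This removes the library scaling, but the ratios derive from the values on which the family was chosen and are given without a test. Per length, Ramp3 stood at 1.11, 0.764, 1.60 and 1.31 times Calcrl in WT and at 2.12, 2.71, 2.54 and 2.76 times Calcrl in KO. All KO ratios lay above all WT ratios, including those of KO replicate 2 and WT replicate 3, with means of 1.20 ± 0.352 and 2.53 ± 0.292 (SD, n = 4). KO replicate 2, in which both transcripts were low, thus had a ratio among those of the other KO libraries.

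Ramp2 stood at 31.1, 27.4, 41.5 and 27.1 times Calcrl per length in WT and at 38.7, 59.8, 32.9 and 35.3 times in KO. These overlapped, with means of 31.8 ± 6.73 and 41.7 ± 12.3 (SD, n = 4), and carry the uncertainty about reads shared with Vps25. Ramp1 ran from 0.121 to 10.0 times Calcrl in WT, the highest again in WT replicate 3, and from 0.217 to 0.919 times in KO. Ramp3 made up 3.45% ± 0.957 of the counts of the 3 RAMP genes in WT against 6.15% ± 1.52 in KO (SD, n = 4), and the ranges of 2.66% to 4.76% and 4.40% to 7.49% overlapped. Per length the shares were 3.43% ± 0.823 and 5.93% ± 1.46. Ramp2 made up between 91.4% and 96.3% of RAMP counts in every library other than WT replicate 3.

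**Figure D3:**
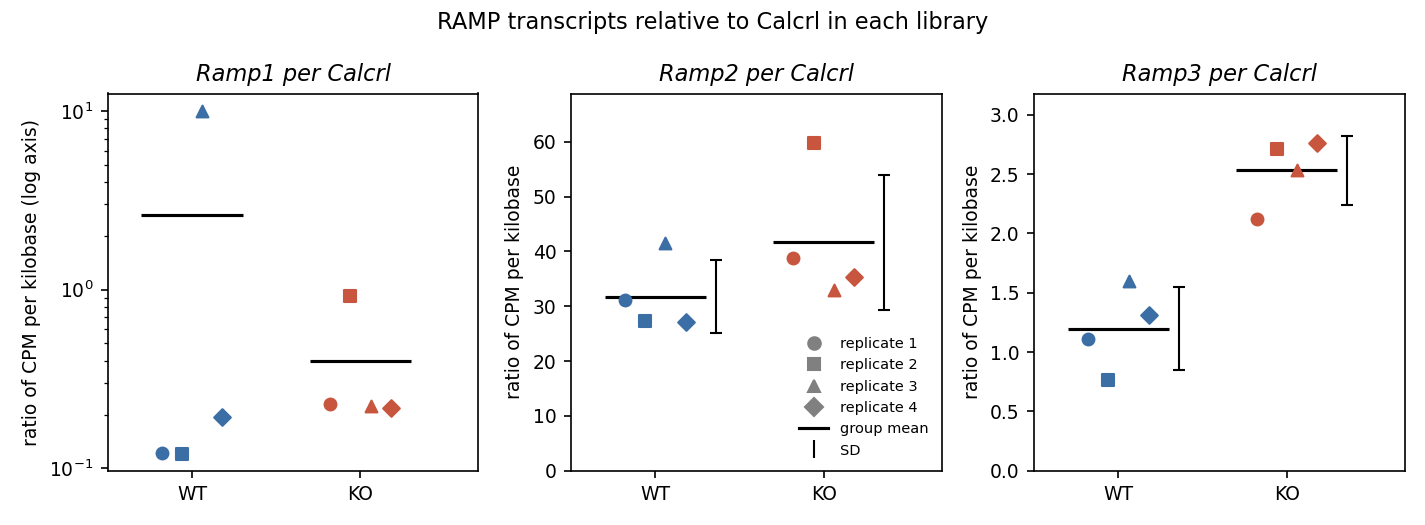
Ratio of each RAMP transcript to Calcrl, both as CPM per kilobase (y axis; log axis for Ramp1), in the WT and KO libraries (x axis). Marker shapes stand for replicate numbers, lines for means and bars for SD (n = 4; none for Ramp1). The Ramp3 ratio lies between 0.764 and 1.60 in WT and between 2.12 and 2.76 in KO.

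Calcrl, Ramp2, Ramp3 and Aplnr are known as genes of vascular endothelium, and endothelial markers lay higher in KO as well. Of 20 such markers 19 lay higher with 8 libraries, with a median log2 fold change of 0.56. EdgeR called 0 of them and DESeq2 8, all higher, where DESeq2 called 8.71% of all genes in either direction. Sox7 (DESeq2 adjusted p = 0.00478), Esam (0.00830) and Tie1 (0.0124) were among the 8. With 6 libraries 20 of 20 lay higher, with a median of 0.59, and edgeR called 8, all higher, where 1.82% of all genes were called higher. Their summed level was 3174, 3132, 2439 and 2915 CPM in WT and 5023, 2838, 3864 and 4966 CPM in KO, and no marker was at 0. KO replicate 2, the KO library with the least Calcrl, Ramp2, Ramp3 and Aplnr, thus had the lowest endothelial level in KO. The part of the endothelial level in the family's differences was not tested, and the levels relative to it were computed as a description.

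Per 1000 CPM of the endothelial markers, Ramp3 stood at 1.00, 0.870, 1.54 and 1.61 CPM in WT and at 2.03, 1.64, 2.67 and 2.95 CPM in KO. All KO values lay above all WT values, the nearest pair being KO replicate 2 and WT replicate 4. On CPM this pair lay the other way round. The means were 1.26 ± 0.374 and 2.32 ± 0.596 (SD, n = 4), a mean log2 difference of 0.90, or 1.17 with 6 libraries. Aplnr stood at 1.27, 9.16, 5.53 and 7.48 CPM in WT and at 10.4, 9.71, 9.60 and 9.79 CPM in KO on the same scale. The KO values were nearly alike and lay above all WT values, the lowest of which was replicate 1. The mean log2 difference was 1.08, or 1.16 with 6 libraries, and 0.45 without WT replicate 1. How many of all genes separate likewise on this scale was not computed.

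For Ramp2 and Calcrl the ratio to the endothelial markers differed less between the groups. Ramp2 stood at 31.6 ± 4.76 CPM per 1000 endothelial CPM in WT against 34.8 ± 1.25 in KO (SD, n = 4), and the groups overlapped. The mean log2 difference of this ratio was 0.15 with 8 libraries and 0.25 with 6. Calcrl stood at 4.19 ± 0.604 and 3.65 ± 0.857, a mean log2 difference of -0.22, or -0.08 with 6 libraries. For Adm and Apln the mean log2 difference of the ratio was -0.13 and -0.85 with 8 libraries and 0.00 and -0.38 with 6, with overlapping groups (-0.37 for Apln without KO replicate 2 alone), and both peptides are also made outside endothelium.

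**Figure D4:**
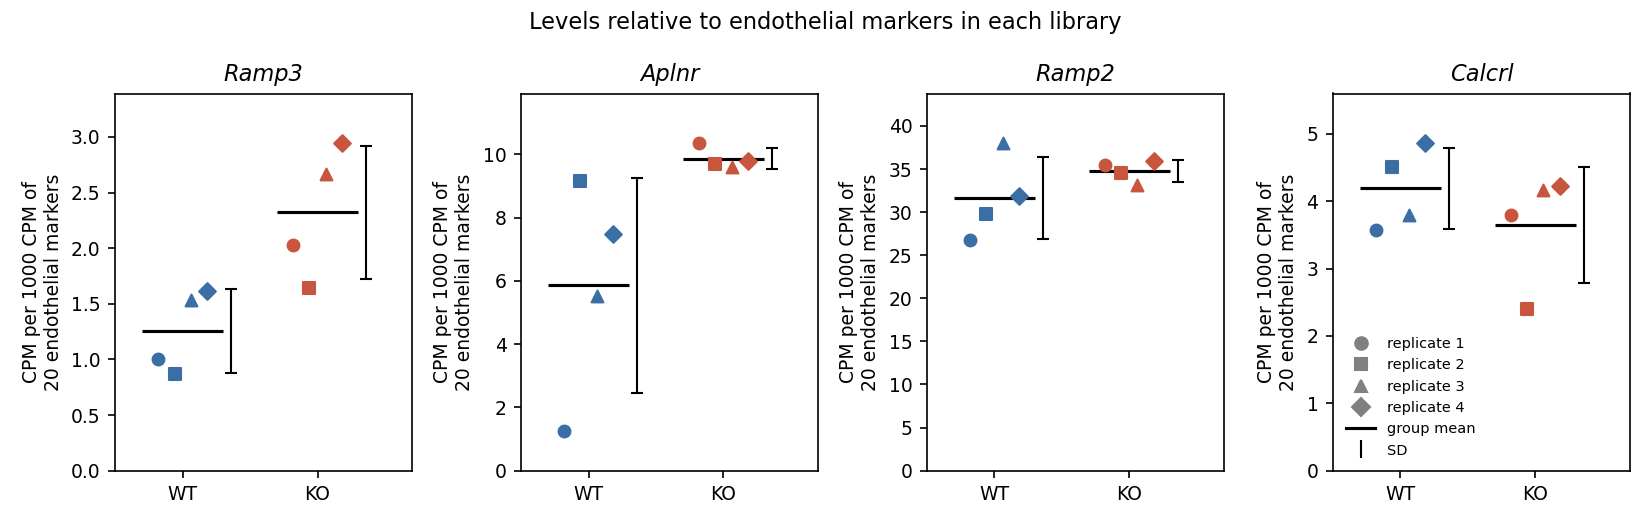
CPM of Ramp3, Aplnr, Ramp2 and Calcrl per 1000 summed CPM of 20 endothelial markers (y axis) in the WT and KO libraries (x axis). Marker shapes stand for replicate numbers, lines for means and bars for SD (n = 4). On this scale all KO libraries lie above all WT libraries for Ramp3 and Aplnr, whose groups overlapped on CPM. The nearest Ramp3 values are 1.61 in WT and 1.64 in KO, while Ramp2 and Calcrl overlap.

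Endothelial subtypes and neighbouring cells were measured by further lists. Of 10 arterial genes 9 lay higher with 8 libraries (median 0.42 on the log2 scale, 0.39 with 6 libraries). With 6 libraries, where 1.82% of all genes were called higher, edgeR called Efnb2, which encodes ephrin-B2 (log2 fold change 0.96, adjusted p = 0.0313), and Unc5b, a netrin receptor gene (0.93, adjusted p = 0.0289). Of 7 venous genes 5 lay higher (median 0.14, or 0.35 with 6 libraries), and Ephb4, the receptor of ephrin-B2, was called with 6 libraries (0.77, adjusted p = 0.0289). Aplnr is known as a venous gene and Apln as a gene of endothelial tip cells, the leading cells of a sprout. Of 9 tip cell genes other than Apln, 8 were tested, as Esm1 had at most 8 counts in any library. All 8 lay higher (median 0.35, or 0.46 with 6 libraries), with medians below the 0.56 and 0.59 of the endothelial markers. Kcne3, a potassium channel subunit gene, and Nid2, a basement membrane gene, were called with 6 libraries (2.42 and 0.57, adjusted p = 0.0399 and 0.0437). With 8 libraries DESeq2, which called 8.71% of all genes in either direction, called 1 gene, higher, in each of these 3 lists. These were Efnb2 (adjusted p = 0.00241), Vcam1 (0.0139) and Cxcr4 (0.0275). Vcam1 and Cxcr4 were named after their values were seen. DESeq2 did not call Unc5b, Ephb4 or Nid2, and gave no adjusted p for Kcne3. EdgeR called 0 genes of these lists with 8 libraries. In KO replicate 2, left out of the 6, Unc5b and Nid2 were at 7.55 and 9.52 CPM, below every WT library in each case. The mean level of Kcne3 was low, 0.211 CPM in the WT and 0.775 CPM in the KO libraries. Lymphatic markers, of cells that also use adrenomedullin, lay lower in 5 of 6 cases (median -0.65, or -0.56 with 6 libraries). Pdpn was at -1.09 ± 0.47 (SE; edgeR adjusted p = 0.221), or -0.59 ± 0.46 with 6 libraries. WT replicate 3, left out of the 6, held the most Pdpn, 3.01 CPM. The summed level of the list was 25.5 to 40.7 CPM in WT and 22.2 to 43.5 CPM in KO, with the higher mean in KO. Of 12 mural and smooth muscle markers 9 lay higher (median 0.20, or 0.32 with 6 libraries). Des, which skeletal muscle also expresses, was called lower with 6 libraries (-0.78, adjusted p = 0.0392).

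Of the list of 9 further calcitonin-family and apelin-family peptides and receptors, 7 were in the table and 5 were tested, and 2 of the 5 lay higher in KO (median -0.11), with 0 called by edgeR with 8 or with 6 libraries. Calca, which encodes calcitonin and CGRP, was at 0.777 ± 0.218 CPM in the WT and 0.722 ± 0.141 CPM in the KO libraries (SD, n = 4). Ackr3, which encodes an atypical receptor that binds and clears adrenomedullin, had the smallest p of the list. It was at 258, 69.5, 118 and 109 CPM in WT and at 40.7, 43.7, 90.2 and 84.1 CPM in KO, so that its highest library, WT replicate 1, was the one with the least Aplnr. Its log2 fold change was -1.10 ± 0.44 (SE, adjusted p = 0.207 in edgeR, 0.348 in edgeR with 6 libraries and 0.0445 in DESeq2). DESeq2 called 1 gene of this list, and 8.71% of all genes. Calcr, the calcitonin receptor gene, had 31 counts in WT replicate 3 and at most 2 elsewhere, Adm2 had 1 count in all, and Apela, the second apelin receptor ligand, had 61 counts in KO replicate 2 and 8 to 24 elsewhere.

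Of 6 genes for processing or clearance of the peptides, 2 lay higher (median -0.08). Mme, which encodes neprilysin, a peptidase that degrades many vasoactive peptides, was at 108 ± 20.1 CPM in the WT and 69.4 ± 15.1 CPM in the KO libraries (SD, n = 4). All KO values of Mme lay below all WT values. The share of all genes that did so is not given here, while 5.80% had all KO values above all WT values. The log2 fold change of Mme, -0.65 ± 0.19 (SE), had an edgeR adjusted p of 0.131, and of 0.0752 with 6 libraries. DESeq2, with 8 libraries, called it lower (adjusted p = 0.0279). Of 18 genes for coupling and downstream signalling, 13 lay higher (median 0.17), and edgeR called 0 with 8 libraries. With 6 it called 3, all higher, where 1.82% of all genes were called higher. These were Nos3, the endothelial nitric oxide synthase gene (log2 fold change 0.98, adjusted p = 0.0289), Adcy4, an adenylyl cyclase gene (0.71, adjusted p = 0.0339), and Arrb2, which encodes beta-arrestin 2 (0.55, adjusted p = 0.0472). In that fit the 20 endothelial markers had a median of 0.59, and the part of the endothelial level in these calls was not tested. With 8 libraries DESeq2, which called 8.71% of all genes in either direction, called 2 of the 18 higher and 2 lower. The higher ones were Arrb2 (adjusted p = 0.0186) and Nos3 (0.0399). The lower ones were Adcy3, another adenylyl cyclase gene (-1.25, adjusted p = 0.00321), and Gnai1, an inhibitory G protein gene (-0.51, adjusted p = 0.0288), which were named after their values were seen. In KO replicate 2 the levels of Nos3 and Adcy4 were 35.9 and 67.6 CPM, below every WT library in each case.

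Hypoxia-inducible genes, the group to which Adm belongs, lay higher in 6 of 21 cases with 8 libraries (median -0.33). Adm itself was at 0.38 ± 0.39 (SE), smaller than its error, so its place relative to the list is not read. With 6 libraries 9 of 21 lay higher (median -0.34), and Pdk1, a pyruvate dehydrogenase kinase gene, was called lower (-0.72, adjusted p = 0.0313). Pdk1 in KO replicate 2 was at 106 CPM, against 42.4 to 53.0 CPM in the other KO libraries. Of 5 genes of the hypoxia-inducible factors 3 lay higher (median 0.13), with Hif3a at 1.18 ± 0.55 (SE; edgeR adjusted p = 0.243). DESeq2 called 3 of the 21 hypoxia-inducible genes with 8 libraries, 1 higher and 2 lower, and edgeR 0. Of all genes DESeq2 called 8.71%, so nothing is read from this count.

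**Figure D5:**
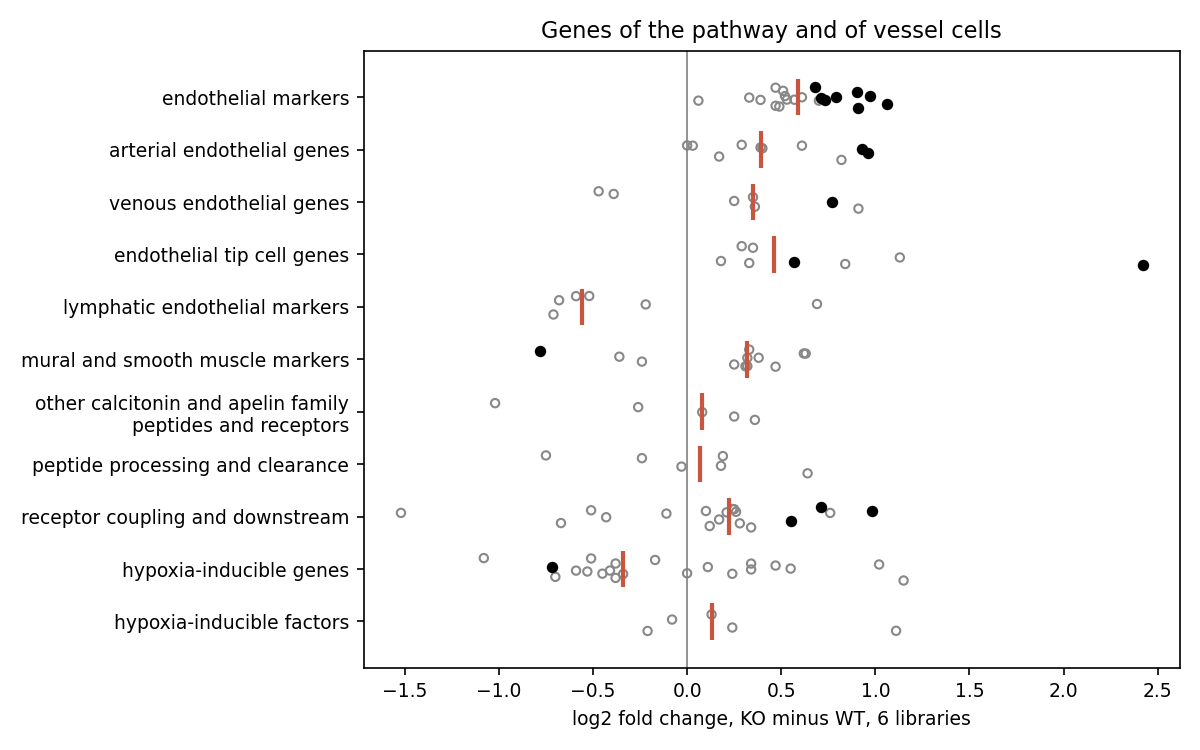
Log2 fold change, KO minus WT, with 6 libraries (x axis) for each tested gene of the pathway and vessel cell lists (y axis; vertical scatter within a list has no meaning). Filled points passed edgeR's threshold (adjusted p below 0.05), open points did not, and red lines are list medians, which run from -0.56 for lymphatic markers to 0.59 for endothelial markers.

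Genes whose levels followed Ramp3 were sought among 11389 tested genes whose mean log2 CPM was 1 or more. Over the 8 libraries the highest Pearson correlations of log2 CPM with Ramp3 were those of Cmtm3 and Loxl2, the latter a gene for a matrix cross-linking enzyme (both 0.99), Gcn1l1 and Tcim (both 0.98) and Dpysl2 (0.97). As the groups differ in Ramp3, any gene that differs likewise ranks high, so the deviations from the group means were also ranked. There the highest were Plod2, which encodes a collagen lysyl hydroxylase (0.98), and Slc6a6, the taurine transporter gene, Trir, Trp53bp1 and Tmx3 (0.96 each). Within the family, the correlation of deviations with Ramp3 was 0.86 for Apln, 0.81 for Calcrl, 0.80 for Ramp2, 0.43 for Adm, 0.29 for Aplnr and 0.05 for Ramp1. These points share libraries and scaling, Ramp3 deviates most within KO in replicate 2, and no p is given.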

How the data were processed

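Per the labels' protocols, polyadenylated RNA of adipose tissue was made into libraries with dUTP in the second strand. The authors deposited raw counts, 1 whole number per gene and library. Per the submitters' processing notes the build was GRCm39. The aligner, counter, annotation and strand setting were not given in the sources used here. Symbols came from GENCODE M21 (GRCm38) for 18321 genes and lengths from its principal transcripts. No coordinates of that build were joined to the counts.

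Genes were filtered by filterByExpr, scaled by TMM and fitted with edgeR 4.0.16 (robust quasi-likelihood F test, group as the only term, R 4.3.3), with Benjamini-Hochberg adjustment over 13901 genes and a threshold of 0.05. Standard errors derive from the F statistic, and correlations used a prior count of 2. The members and 19 further gene lists were chosen with earlier results of these data known, as was the 6-library comparison, in which 13901 genes were also tested. Named list genes were up to 4 called with the smallest p, or else the 1 with the smallest p. The lists of Schwann cells, brown adipocytes, fibroblasts, macrophages, T and NK cells and erythroid cells had median log2 fold changes of 0.38, -0.38, -0.38, 0.42, 1.98 and -0.12. With 6 libraries the medians were 0.23, -0.35, -0.07, 0.18, 0.83 and 0.01. Interferon response had 1.25 with 8 libraries and -0.39 with 6, and skeletal muscle -7.11 and -2.25. Calcb and Iapp were not analysed here. Alternatives were other scalings and filters, DESeq2 1.42.0, limma-voom 3.58.1, a replicate block and libraries left out. Ratios with 1 library left out were added after seeing the data. Same-numbered WT and KO libraries did not deviate together (correlations -0.13 to 0.22), so replicate numbers were not used as pairs. The fits were tested on simulated data.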

Additional observations from a re-analysis of the deposited data

Results flagged for a closer look

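Among the 14 groups of 4 libraries over the 7 genes, 3 held a library whose gap to its nearest neighbour, divided by the range, passed the critical value of Dixon's test. Chance gives about 1 such group in 20. Adm in WT replicate 1 was at 4.17 CPM, against 1.82 to 2.18 CPM in the other WT libraries. Ramp1 in WT replicate 3 was at 44.3 CPM, against 0.660 to 1.31 CPM. Ramp2 in WT replicate 1 was at 85.1 CPM, against 92.8 to 93.3 CPM, a small gap within a narrow group.

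Over all 34 genes checked, 12 of 68 groups held such a library. The genes outside the family were mostly named for a small p, and all share the same libraries, including those that stood apart. The chance rate is therefore no yardstick for this count. KO replicate 2 was the one for Arrb2 (34.3 CPM, against 19.8 to 20.6), Pdk1 (106 CPM), Unc5b (7.55 CPM, against 20.9 to 21.4), Klrb1c (7.49 CPM) and Irf1 (301 CPM). WT replicate 3 was the one for Pdpn (3.01 CPM), Des (1804 CPM) and Mylpf (2054 CPM), and WT replicate 2 for Irf1 (55.2 CPM).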

How the results depend on the processing

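Over 18 alternative settings Ramp3 ranged from 1.22 (without KO replicate 4) to 1.73 in log2 fold change, Ramp2 from 0.57 to 0.95, Aplnr from 0.95 (without WT replicate 1) to 1.66, Calcrl from 0.19 to 0.62 and Adm from 0.07 (without KO replicate 1) to 0.73, all positive. Apln ranged from -0.43 to 0.25, with 5 values positive and 13 negative. Ramp1 was -0.01 with limma-voom, 0.51 with sample quality weights, 0.28 with the replicate block and 1.09 with 6 libraries, and leaving out 1 library gave -2.79 to 1.26, the highest without WT replicate 3. The KO minus WT difference in the Ramp3 share of RAMP counts was 2.7 percentage points, and 2.25 to 3.28 over its 10 alternatives. Most of these leave out 1 library, which can move a group mean only a little, so the range is no test.

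The number of genes called, 0 in edgeR with 8 libraries (2993 at an unadjusted p under 0.05), was 882 with total library size only, 1 with no filter, 1113 in DESeq2, 0 in limma-voom, 911 with sample quality weights, 461 with 6 libraries and 249 at an adjusted p under 0.10. Leaving out 1 library gave 0 to 361, the highest without KO replicate 2. Of the list genes, 0 were called in edgeR with 8 libraries, against 18 with total library size only, 29 in DESeq2, 26 with quality weights, 19 with 6 libraries, 3 at an adjusted p under 0.10 and 0 to 16 with 1 library left out. With the replicate block 0 genes were called, and Ramp3 was 1.39. The causes were not tested. Adm, Apln and Ramp1 rest on fewer than 300 counts in all libraries but 1, which limits their precision. The same limit holds for Ramp3 in WT, with 87 to 187 counts per library, and in KO replicate 2, with 208.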
